A study of Mus musculus with 48 samples.

Results

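The regions described here are stretches of the mouse genome that carried HNF4α in adult liver, at postnatal day 60 (P60), and at no earlier stage studied. HNF4α, encoded by Hnf4a, was mapped by chromatin immunoprecipitation with sequencing (ChIP-seq) in livers at embryonic days 15.5 and 18.5 (E15.5 and E18.5), in newborns (P0.5) and at postnatal days 14 and 60 (P14 and P60). The members were chosen by the deposited HNF4α peak positions. Overlapping peaks of both replicates of a stage had to form 1 stretch, and the stretches of all 5 stages were then merged where they shared at least 1 bp. This gave 63925 merged HNF4α regions, of which 10028 (15.7%) were bound at P60 and at no other stage and are called P60-only regions. The 53897 other regions comprised 5758 bound at every stage, 4006 bound at P14 and P60 only, 15769 bound at P60 in other combinations and 28364 not bound at P60.

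The ChIP-seq livers were wild type, from F1 mice of a C57Bl6/CBA cross. C/EBPα, encoded by Cebpa, was mapped in wild-type livers of the same cross at the same 5 stages, with 2 replicates per stage. RNA was sequenced from 2 livers with Hnf4a deleted (HNF4a lox/lox with Alfp-Cre, HNF4α KO), 3 livers with Cebpa deleted (C/EBPa lox/lox with Alfp-Cre, C/EBPα KO) and 3 wild-type (WT) livers, all F1 mice of that cross. The sample labels put these livers at 60 days postnatal, but the series text at E18.5, and their age is therefore uncertain. Alfp-Cre uses albumin and alpha-fetoprotein control elements and deletes the floxed gene in the embryonic liver lineage, so deletion starts before birth and not only in the adult. Protein was not measured in these data, and RNA of the targeted genes was lower but still present, as given below. The protocols state male mice on either a standard chow or a high fat diet, without saying which animal had which diet, and the labels do not say whether replicates shared a litter or a day. The series' 20 polymerase and input ChIP samples were not analysed here.

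HNF4α is a nuclear receptor that binds DNA as a homodimer at direct repeats of a short motif and is required for hepatocyte differentiation, lipid transport, bile acid synthesis and drug metabolism. C/EBPα is a basic leucine zipper factor that binds many of the same liver enhancers and promotes urea cycle, gluconeogenic and plasma protein genes. Between birth and adulthood hepatocytes lose fetal programmes such as alpha-fetoprotein, acquire cytochrome P450 and bile acid enzymes, and in rodents take on a sex-dependent programme set by the pattern of growth hormone release through STAT5.

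A P60-only region held the transcription start of 826 genes. The promoters shown are from these genes, and RefSeq had to give the gene 1 start. Cyp26a1 apart, each was picked from the gene lists and named genes below. Each of those picked was also called in HNF4α KO (limma adjusted p under 0.05), so its RNA change was part of the choice. The sequences come from RefSeq on build GRCm38.p6, are read in the direction of transcription and hold the 250 bases before the start. The peaks themselves are on build mm9, and genes were matched by symbol with gene lengths that differed by at most 100 bp. Capitals mark matches to letters searched on both strands, and where there are none no searched letters were found in this window. The searched letters were CAAAGTCCA and CAAAGTTCA for HNF4, TTCCNNGAA for STAT5, AGATAA for GATA, TTGCGCAA, TTGCACAA and TTGTGCAA for C/EBP, TGTTTAC for FOXA, and the palindromes of HNF1 and of the glucocorticoid receptor. The HNF4 letters are the exact consensus and leave out most degenerate sites.

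Hamp encodes hepcidin, the iron-regulating hormone of the liver (chr7:30944030-30944279, minus strand). Capitals mark AGATAA on the other strand (TTATCT) and TTCCNNGAA on the other strand (TTCTTGGAA).
Hamp: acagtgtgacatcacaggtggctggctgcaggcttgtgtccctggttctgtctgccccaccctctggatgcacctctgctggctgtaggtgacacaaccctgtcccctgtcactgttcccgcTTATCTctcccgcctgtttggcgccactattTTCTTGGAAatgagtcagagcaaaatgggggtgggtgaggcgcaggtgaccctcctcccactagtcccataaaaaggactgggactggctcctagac
Dbp encodes a PAR bZIP factor of the circadian output (chr7:45704997-45705246, plus strand), with TTCCNNGAA in capitals.
Dbp: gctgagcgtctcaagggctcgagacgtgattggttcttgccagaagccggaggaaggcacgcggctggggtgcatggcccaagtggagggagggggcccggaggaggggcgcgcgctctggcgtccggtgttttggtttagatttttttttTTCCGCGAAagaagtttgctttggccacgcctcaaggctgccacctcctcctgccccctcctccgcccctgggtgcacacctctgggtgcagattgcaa
Cyp26a1 encodes the retinoic acid hydroxylase (chr19:37697558-37697807, plus strand). It was picked after its letters were seen, since it holds the HNF4 letters on the other strand (TGAACTTTG, in capitals) at -32 to -24 from the start.
Cyp26a1: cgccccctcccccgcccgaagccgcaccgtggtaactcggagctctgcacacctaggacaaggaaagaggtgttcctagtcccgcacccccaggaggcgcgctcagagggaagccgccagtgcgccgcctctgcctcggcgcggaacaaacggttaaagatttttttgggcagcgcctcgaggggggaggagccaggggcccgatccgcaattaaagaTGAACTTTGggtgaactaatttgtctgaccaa
Nr1h4 encodes FXR, the bile acid receptor (chr10:89506659-89506908, minus strand), with TTATCT in capitals.
Nr1h4: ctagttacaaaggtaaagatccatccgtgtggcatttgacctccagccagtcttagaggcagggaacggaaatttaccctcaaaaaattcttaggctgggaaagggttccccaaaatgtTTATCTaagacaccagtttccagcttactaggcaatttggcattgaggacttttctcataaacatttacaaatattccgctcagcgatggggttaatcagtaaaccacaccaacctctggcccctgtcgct
Cyp2f2 encodes a cytochrome P450 of periportal hepatocytes and airway cells (chr7:27119705-27119954, plus strand).
Cyp2f2: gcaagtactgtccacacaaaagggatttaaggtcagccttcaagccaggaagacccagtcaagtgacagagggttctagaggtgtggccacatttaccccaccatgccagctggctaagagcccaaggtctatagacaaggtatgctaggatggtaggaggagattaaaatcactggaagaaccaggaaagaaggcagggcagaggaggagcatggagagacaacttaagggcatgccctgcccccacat
Slco1a1 encodes an organic anion transporter that is male-biased in adult liver (chr6:141946963-141947212, minus strand).
Slco1a1: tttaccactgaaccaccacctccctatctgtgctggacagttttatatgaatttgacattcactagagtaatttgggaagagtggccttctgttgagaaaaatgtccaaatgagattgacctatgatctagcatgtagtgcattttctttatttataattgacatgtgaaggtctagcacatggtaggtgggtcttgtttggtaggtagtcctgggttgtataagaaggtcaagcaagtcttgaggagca

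Of the 826 genes whose start lay in a P60-only region, 459 had a RefSeq promoter with 1 start. The HNF4 letters stood in 6 of these promoters (1.31%), in 42 of 1834 promoters (2.29%) whose start lay in a region bound at P60 and at another stage, and in 168 of 22862 RefSeq promoters (0.735%). The STAT5 letters stood in 28 (6.1%) of the P60-only promoters, 78 (4.25%) of the others bound at P60 and 958 (4.19%) of all. GATA letters stood in 33 (7.19%), 101 (5.51%) and 2370 (10.4%), FOXA letters in 10 (2.18%), 52 (2.84%) and 708 (3.1%), and C/EBP letters in 8 (1.74%), 19 (1.04%) and 247 (1.08%), in the same order. Letters of the glucocorticoid receptor were in 1, 7 and 89 promoters and those of HNF1 in 0, 0 and 2. The P60-only promoters had a median GC content of 58.0%, close to the 59.6% of other promoters bound at P60 and above the 52.0% of all. These shares describe the letters in the window, and the part of GC content in them was not tested.

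Some properties of the files bear on these values. The HNF4α lists held 21262 to 53278 peaks with median widths of 337 to 1009 bp, and the P60 lists held 46926 and 49395 peaks of 579 and 750 bp. The deposited lists of both P0.5 replicates were identical and were counted as 1. The score column was 0 throughout, so no peak height was available. The RNA totals were 26 and 20 M normalized reads in HNF4α KO, 13.4 to 16.4 M in C/EBPα KO and 20.4 to 22.5 M in WT. As to the age of the RNA livers, Afp, the fetal alpha-fetoprotein gene, stood at 499143 to 706964 normalized reads and H19 at 303520 to 724668 in WT, among the most abundant RNAs. HNF4α KO replicate 1 stood apart, since the 13 skeletal muscle markers summed to 658728 normalized reads there, against 898 in replicate 2, 282 to 1861 in C/EBPα KO and 288 to 490 in WT.

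The targeted genes followed their labels. Hnf4a was at 1238 and 2444 normalized reads in HNF4α KO, against 9098, 4948 and 6718 in WT (log2 difference -1.95 ± 0.45 SE, n = 2 and 3, limma adjusted p = 0.033), a call lost without WT replicate 1, WT replicate 3 or HNF4α KO replicate 1 (adjusted p up to 0.44). Cebpa, itself the gene with 7 P60-only regions, was at 322, 419 and 998 in C/EBPα KO, against 9999, 9594 and 5511 in WT (-3.98 ± 0.44, n = 3 each, adjusted p = 0.000413).

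The rule rests on presence or absence of called peaks, and the values around its threshold were as follows. Of the 10028 P60-only regions, 6402 (63.8%) held no HNF4α peak in any earlier list. A peak in 1 of the 2 lists of a stage, which the rule does not count, was present at E15.5 in 1740 (17.4%), at E18.5 in 272 (2.71%) and at P14 in 2349 (23.4%). At P0.5 there was none, because its lists are identical. Just outside the threshold stood the 4006 regions bound at P14 and P60 only, 2602 bound at E15.5 and P60 only, 638 at P0.5 and P60 only and 165 at E18.5 and P60 only. Another 8298 P60 peaks of replicate 1 and 12652 of replicate 2 had no partner in the other replicate. P60 peaks inside P60-only regions were narrower than those in regions bound at every stage, with medians of 527 bp against 725 bp in replicate 1 and 709 bp against 931 bp in replicate 2.

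P60-only regions lay mostly away from transcription starts and inside genes. Their midpoints were a median of 15.6 kb from the nearest start, against 12.4 kb for regions bound at every stage and 24.4 kb for regions not bound at P60. Of the P60-only regions, 1096 (10.9%) had their midpoint within 1 kb of a start, against 13.3% of regions bound at every stage and 6.53% of regions not bound at P60. A start lay inside 8.24% of P60-only regions and 12.8% of regions bound at every stage, and a gene body overlapped 63.4% and 65.6%. Regions bound at P14 and P60 only were close to P60-only regions in these shares, with 9.41% within 1 kb and a median of 17.1 kb. Width differed as well, and its part in these shares was not tested: the median was 731 bp for P60-only regions and 1219 bp for regions bound at every stage.

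**Figure D1:**
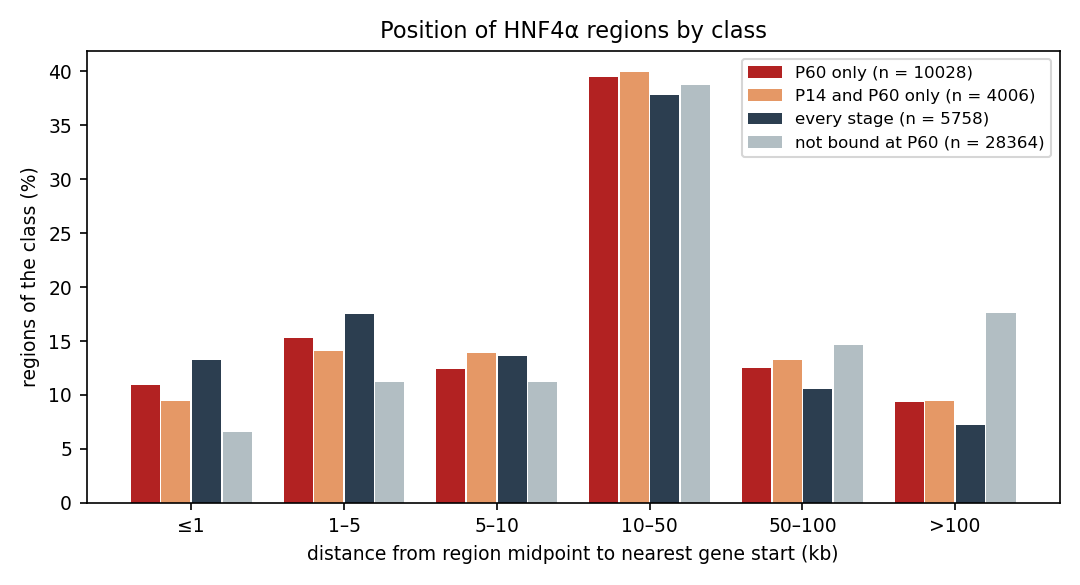
Share of HNF4α regions (y axis, percent of the class) by distance from the region's midpoint to the nearest gene start (x axis, kb), for P60-only regions, regions bound at P14 and P60 only, regions bound at every stage and regions not bound at P60. P60-only regions hold 10.9% of their members within 1 kb and 39.5% between 10 and 50 kb, and their bars lie between those of the regions bound at every stage and those not bound at P60 in the nearest and the farthest bins.

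P60-only regions usually had other HNF4α regions nearby. The nearest HNF4α region that was not P60-only was a median of 5.73 kb away. It lay within 10 kb for 64.4% of P60-only regions. The share was 70.3% for regions bound at every stage and 52.8% for those not bound at P60. For these classes neighbours of their own class counted and P60-only regions did not, so the shares are not like for like. Only 746 P60-only regions (7.44%) had none within 50 kb. By chromosome, the P60-only share of all HNF4α regions was highest on chromosome 19 (19.8%, 388 of 1963) and chromosome 4 (18.1%, 771 of 4260), and lowest on the X chromosome (9.75%, 211 of 2164). Chromosome Y had 9 of 76.

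C/EBPα peaks were measured in separate lists that the rule did not use. In P60-only regions a C/EBPα peak was present in 8.44% and 6.94% of regions in the E15.5 lists (replicates 1 and 2), 42.5% and 35.2% in the E18.5 lists, 44.3% and 47.0% in the P0.5 lists, 33.9% and 36.6% in the P14 lists and 52.0% and 69.2% in the P60 lists. The 95% Wilson interval, which covers counting error only, was 51.05% to 53.0% for P60 replicate 1 and 68.25% to 70.05% for P60 replicate 2. All other HNF4α regions had 16.6% and 13.5% at E15.5, 48.0% and 41.3% at E18.5, 46.8% and 48.9% at P0.5, 35.3% and 36.6% at P14 and 34.0% and 44.5% at P60. Both P60 lists thus gave a higher share in P60-only regions, and P14 replicate 2 was level, while the other 7 lists gave a lower share.

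Across all 10 C/EBPα lists the shares of P60-only and all other regions did not pass the test, with a mean difference of 1.06 percentage points (SD 11.1, higher in 3 of 10 lists, exact paired permutation test over lists, 2-sided p = 0.736). The call rests on how the HNF4α lists define the regions. With 1 E18.5 list left out, a peak in the remaining list alone counted as bound. All merged regions then rose from 63925 to 83298 (without replicate 1) and 92954 (without replicate 2). The P60-only regions were 9930 and 9853, beside 10028. Without HNF4α E18.5 replicate 1 the difference was 10.57 points (higher in 8 of 10 lists, exact paired permutation test, p = 0.00977) and without E18.5 replicate 2 it was 13.43 points (8 of 10 lists, p = 0.00781, same exact test). Over 5 stage means the exact paired permutation test can reach no less than p = 0.0625. The contrast between stages was measured on another scale. The share in P60-only regions divided by the share in all other regions, on the log2 scale, averaged 0.62 in the 2 P60 lists and -0.32 in the 8 earlier lists, a difference of 0.94 (higher in 2 of 2 P60 lists than in every earlier list, exact permutation test, 2-sided p = 0.0444). This is the smallest p that 2 lists against 8 allow, and adjusted over the 2 tests it was 0.0888, which did not pass. With any C/EBPα list left out the design no longer reaches 0.05, with p of 0.0556 without an earlier C/EBPα list and 0.222 without a P60 one (same exact test). Taking stage means as units, the exact permutation test gave p = 0.4, the smallest that 1 against 4 allows.

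The comparison depends on which regions P60-only regions are set against. All other regions include 28364 that were not bound by HNF4α at P60, of which 7.42% were bound by C/EBPα at P60 in both lists. Against the 25533 regions bound by HNF4α at P60 and at another stage, the P60-only share of C/EBPα peaks was lower in all 10 lists, with a mean difference of -20.8 points (SD 7.62, exact paired permutation test, p = 0.00195, the smallest that 10 lists allow). At P60 itself these regions had 62.1% and 77.3%, against which the 52.0% and 69.2% of P60-only regions are lower in both lists. Against regions bound at every stage the mean difference was -32.7 points (lower in 10 of 10 lists, exact paired permutation test, p = 0.00195). The 10 lists are 2 replicates at each of 5 stages, so they may not be independent units. Over 5 stage means the exact paired permutation test can reach no less than p = 0.0625, and it was not run on them for these references. P60-only regions are narrower, and within fixed windows of 400 bp around the midpoint the mean difference from other regions bound at P60 was -17.9 points (exact paired permutation test, p = 0.00195). In those windows the log2 ratio to other regions bound at P60 was 0.75 higher in the P60 lists than in the earlier lists (exact permutation test, p = 0.0444). Of regions bound at P14 and P60 only, 68.85% and 80.4% held a C/EBPα peak in the P60 lists. The P60-only share divided by theirs was 0.756 and 0.86 there. It was 0.824 and 0.9 at E15.5, 0.872 and 0.822 at E18.5, 0.862 and 0.87 at P0.5, and 0.554 and 0.593 at P14. The P60 lists thus lay above the P14 lists but not above every earlier list, and this contrast was not tested.

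**Figure D2:**
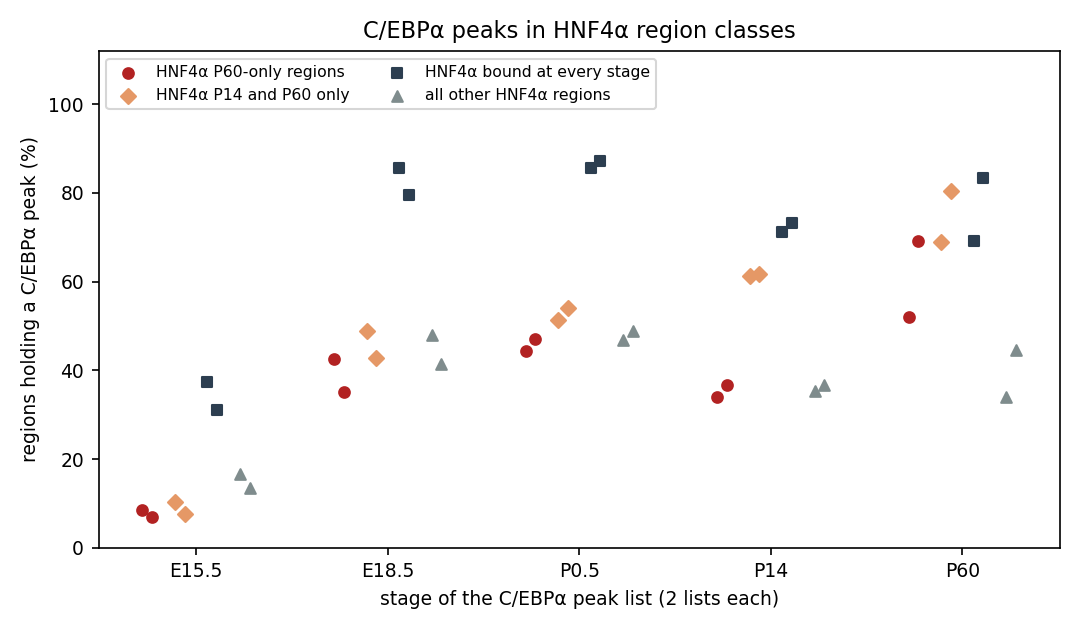
Share of HNF4α regions holding a C/EBPα peak (y axis, percent) in each of the 10 C/EBPα lists by stage (x axis, 2 lists per stage), for P60-only regions, regions bound at P14 and P60 only, regions bound at every stage and all other regions. P60-only regions reach 52.0% and 69.2% in the P60 lists, above all other regions at 34.0% and 44.5%, and below regions bound at every stage in every list.

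When C/EBPα binding was called by the same rule of both replicates, 4010 P60-only regions (39.99%) had no C/EBPα region at any stage. C/EBPα was bound at P60 and at an earlier stage in 3704 (36.9%), at earlier stages only in 1014 (10.1%) and at P60 without any earlier stage in 1300 (12.96%). The last share was 9.89% in regions bound by HNF4α at P14 and P60 only, 0.96% in regions bound at every stage and 1.82% in all other regions. C/EBPα was bound before birth in 3394 P60-only regions (33.9%), against 77.7% of regions bound at every stage and 40.1% of all other regions. In all, 4718 P60-only HNF4α regions (47.0%) held C/EBPα at some earlier stage. Seen from the C/EBPα side, 7660 of 107812 C/EBPα regions were bound at P60 only. The overlap was 1316 P60-only HNF4α regions (13.1% of them) with 1332 P60-only C/EBPα regions (17.4% of those).

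P60-only regions were assigned to the gene with the nearest start within 50 kb of the midpoint. This placed 7836 of the 10028 at 5425 genes and left 2192 unassigned. Of the assigned regions 6447 were at genes that also had HNF4α regions of another class, and 1163 genes had P60-only regions and no others. Of the 5425 genes 3837 had 1 P60-only region, 1060 had 2, 338 had 3, 117 had 4 and 73 had 5 or more, up to 8.

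The 10 genes with the most P60-only regions were Clmn and Sc5d with 8, Arhgap42, Cebpa, Gm12786, Gm20412, Gm2666, Sntg2 and a U1 gene with 7, and 2900026A02Rik with 6, a count that other genes such as Nudt7 share. Cebpa, the gene of C/EBPα, had 7 P60-only and 8 other HNF4α regions. The 7 lay downstream of the gene on chromosome 7 (mm9), from chr7:35907207-35909263, 3.92 kb past the start, to chr7:35927010-35927695, 23.0 kb past it. C/EBPα was bound at P60 in 5 of these 7, and before P60 in the same 5. Sc5d, a sterol desaturase of cholesterol synthesis, had a P60-only region over its start (chr9:42072015-42072925) and 7 others from 4.31 to 47.7 kb away. Its RNA was at 201 and 415 normalized reads in HNF4α KO, against 1257, 1303 and 1954 in WT. Clmn, which encodes the transmembrane protein calmin, had all 8 inside the gene, 8.48 to 35.1 kb from the start, and its RNA was at 121 and 100 in HNF4α KO, against 1034, 647 and 583 in WT. In neither gene did the groups overlap. Sc5d fell by 2.35 on the log2 scale (± 0.39 SE, limma adjusted p = 0.00587) and Clmn fell by 2.72 (± 0.49, adjusted p = 0.00964), n = 2 and 3. Sc5d lost the call without HNF4α KO replicate 1 (adjusted p = 0.121), and Clmn without WT replicate 1 or either HNF4α KO replicate (adjusted p up to 0.0774). Gm12786, Gm20412, Gm2666, Sntg2 and the U1 gene were below the limit of 10 normalized reads in 2 libraries and were not tested.

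Among the 17771 genes tested for RNA, 3658 (20.6%) had a P60-only region. Lists of genes of known liver function were set against this share. The synthesis of fatty acids, triglycerides and cholesterol stood highest, with P60-only regions at 20 of 24 genes (83.3%) and 47 regions. Among them were Gpam, the acyltransferase of glycerolipid synthesis, and Acacb, an acetyl-CoA carboxylase, with 5 each, Elovl6, a fatty acid elongase, with 4, and Fasn, fatty acid synthase, with 3. Periportal hepatocyte genes had 10 of 16 (62.5%), male-biased adult liver genes 9 of 15 (60.0%), bile acid synthesis and transport 12 of 20 (60.0%), cytochrome P450 and drug metabolism 20 of 34 (58.8%), and glucose and glycogen genes 10 of 17 (58.8%). Urea cycle and amino acid breakdown had 17 of 30 (56.7%), circadian clock genes 10 of 18 (55.6%), fatty acid oxidation and ketone bodies 11 of 21 (52.4%), growth hormone, STAT5 and insulin-like growth factor genes 9 of 18 (50.0%), and liver transcription factors and nuclear receptors 18 of 36 (50.0%). Apolipoproteins had 10 of 21 (47.6%), coagulation, complement and acute phase 18 of 39 (46.2%) and pericentral genes 8 of 18 (44.4%).

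In 2 of the liver lists the share was below that of all genes. Fetal liver genes had a P60-only region at 1 of 15 (6.67%), Ahsg, the fetuin-A gene, although 14 of the 15 had an HNF4α region of another class. Female-biased adult liver genes had 2 of 15 (13.3%), Cyp17a1, a steroid hydroxylase, and Sult3a1, a sulfotransferase, although all 15 had HNF4α regions of another class. The male-biased list had 13 of 15 with such other regions. In the remaining liver lists, regions of another class were present at 81.2% to 100% of genes. Lists of other cell types had few P60-only regions, with 0 of 11 macrophage genes, 0 of 11 stellate cell and fibroblast genes, 0 of 9 neutrophil genes, 1 of 13 skeletal muscle genes, 1 of 12 erythroid genes, 1 of 8 bile duct genes, 1 of 7 lymphocyte genes, 2 of 11 endothelial genes and 1 of 5 pancreatic acinar genes, while hepatocyte markers had 6 of 10. The lists are small, they differ in how many HNF4α regions of other classes their genes have, and the part of that in the shares was not tested.

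**Figure D3:**
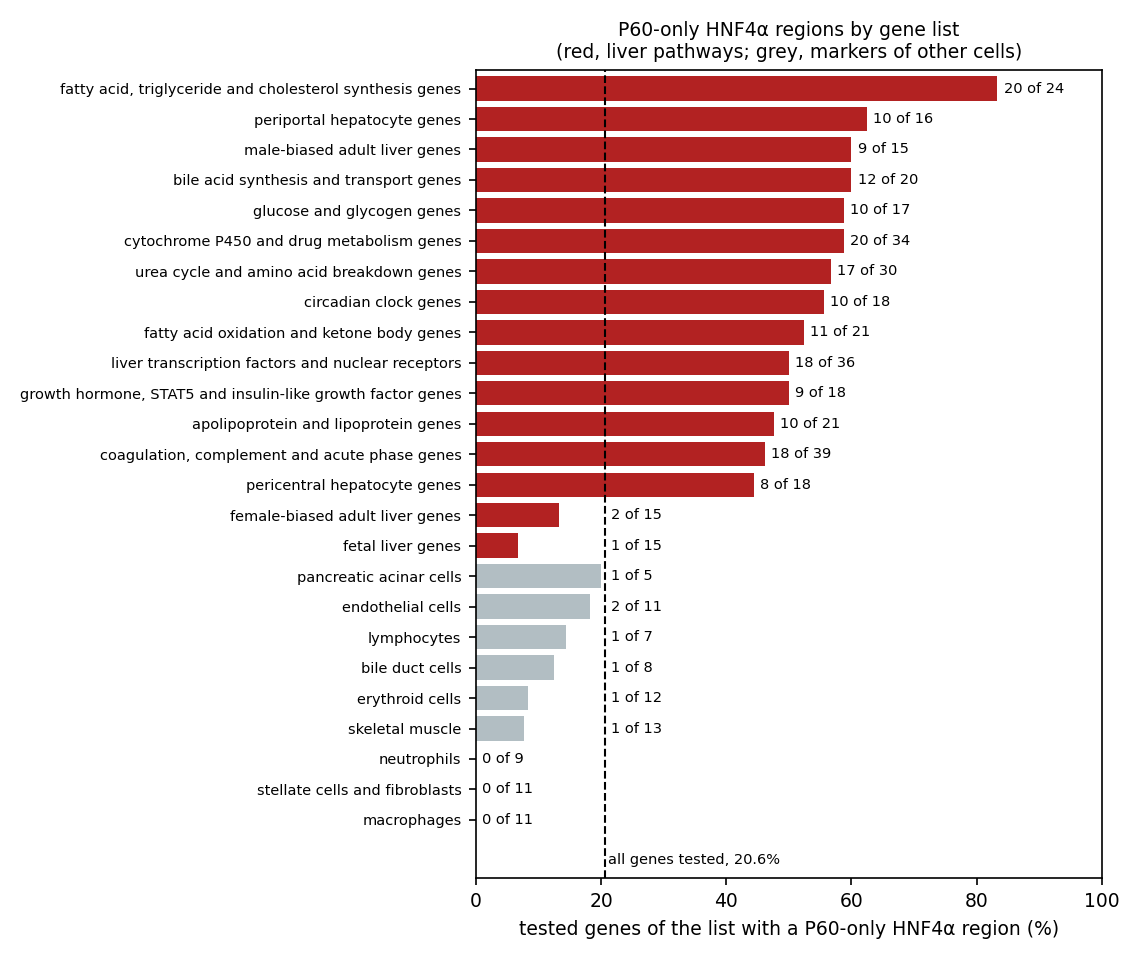
Share of tested genes with a P60-only HNF4α region (x axis, percent) in each gene list (y axis), with the count beside each bar. The dashed line is the 20.6% of all genes tested. Lipid synthesis genes are highest at 83.3%, and fetal liver genes (6.67%) and female-biased genes (13.3%) lie below the line with the markers of other cell types.

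In the growth hormone pathway P60-only regions lay at signalling genes and at targets. Stat5b, the transducer of growth hormone signals in hepatocytes, had 4, all inside the gene, 10978 to 31053 bp from its start. Igf1, the circulating growth factor that growth hormone induces, had 3, the nearest at chr10:87320162-87320999, 429 bp from the start. Jak2, the receptor's kinase, and Bcl6, a transcriptional repressor that competes with STAT5, had 2 each, Socs3 had 3 and Socs2, a feedback inhibitor, 1. Of the 9 genes of that list with a P60-only region, Prlr, the prolactin receptor gene, fell in HNF4α KO (-3.17 ± 0.60, adjusted p = 0.0125) and the other 8 did not pass. Over the whole list 2 of 18 fell. Prlr lost the call without WT replicate 3 or either HNF4α KO replicate (adjusted p up to 0.0877).

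The knockout livers were compared with WT for the RNA of genes near P60-only regions. If these livers were E18.5, as the series text has it, P60-only regions were by their definition not bound at that age, and the RNA values cannot bear on binding there. Called genes have a Benjamini-Hochberg adjusted p under 0.05 over 17771 genes, from limma on log2(value + 1). In HNF4α KO, 836 genes were called (4.7%), 273 higher (1.54%) and 563 lower (3.17%). Of the 3658 genes with a P60-only region, 293 were called (8.01%), 46 higher (1.26%) and 247 lower (6.75%), with a median log2 difference of -0.20 against 0.02 over all genes. In bulk RNA, fewer cells of a type and less RNA per cell cannot be told apart. The count was 129 without WT replicate 1, 188 without WT replicate 3, 96 without HNF4α KO replicate 1, 154 without HNF4α KO replicate 2 and 446 without C/EBPα KO replicate 3, and in each of them more genes were lower than higher.

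These calls were at genes that had other HNF4α regions as well. The 2998 genes with both P60-only and other regions had 270 calls (9.01%), 31 higher and 239 lower. The 660 tested genes whose every HNF4α region was P60-only had 23 calls (3.48%), 15 higher and 8 lower, with a median of 0.01, a share below the 4.7% of all genes. With starts assigned within 10 kb this set had 11 higher and 13 lower of 763, so its balance of directions depends on the distance. Genes with other HNF4α regions only had 415 calls of 7927 (5.24%), and genes with no HNF4α region 128 of 6186 (2.07%). Among genes with the same number of other HNF4α regions, the share called was 3.48% with and 2.07% without a P60-only region for 0 other regions, 5.98% and 3.62% for 1, 8.3% and 5.57% for 2 to 3, 11.5% and 10.6% for 4 to 7, and 13.4% and 11.2% for 8 or more. RNA level moves with these classes. The median WT level was 425.4 normalized reads for genes with a P60-only region, 256.6 for those with only P60-only regions, 297.0 for other regions only and 123.7 for no HNF4α region, and its part in the shares was not tested.

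**Figure D4:**
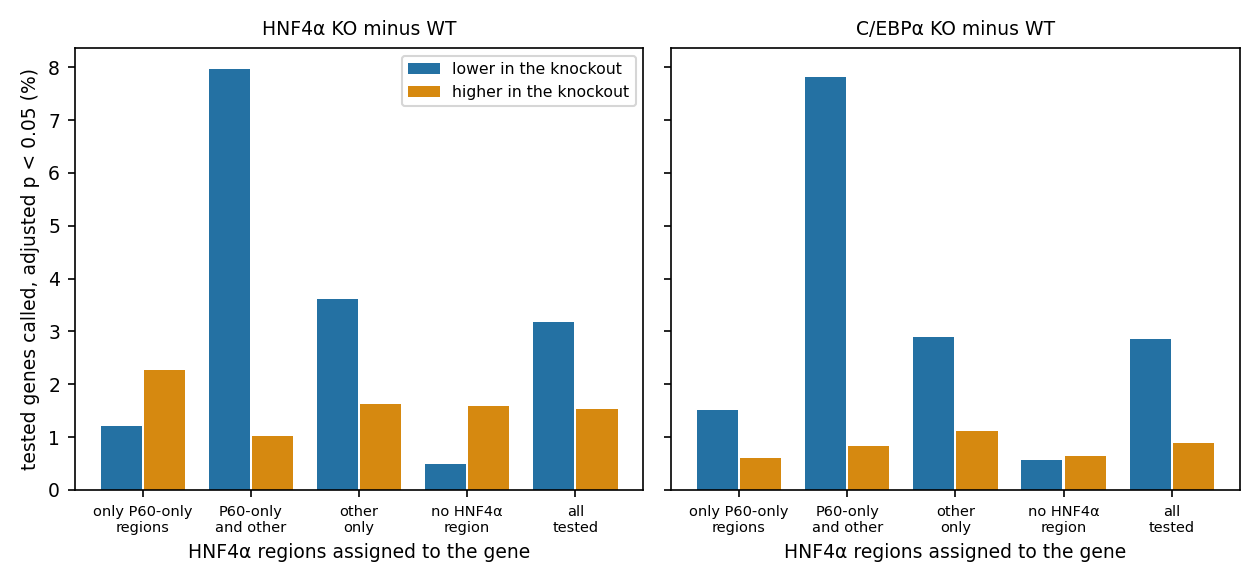
Share of tested genes called lower or higher (y axis, percent, limma adjusted p under 0.05) in HNF4α KO (left panel) and C/EBPα KO (right panel) against WT, by the HNF4α regions assigned to the gene (x axis). Lower calls stand out in genes with both P60-only and other HNF4α regions (7.97% in HNF4α KO, 7.81% in C/EBPα KO), while genes with only P60-only regions have 1.21% and 1.52%.

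Of the 12 bile acid genes with a P60-only region, 8 fell in HNF4α KO, none rose and 4 did not pass, with a median log2 difference of -2.41. Over the whole list 15 of 20 fell, with a median of -3.25. Nr1h4, the bile acid receptor gene whose promoter is shown above, had 5 P60-only regions, the 1 over its start at chr10:88996001-88996815 with C/EBPα bound from E18.5 on. Its RNA was at 93 and 166 normalized reads in HNF4α KO, at 133, 100 and 140 in C/EBPα KO and at 1343, 1285 and 895 in WT, with no overlap between either knockout and WT (HNF4α KO minus WT -3.21 ± 0.40, adjusted p = 0.00124). Slco1b2, a bile acid and drug uptake carrier, was at 49 and 64 in HNF4α KO, against 4948, 4849 and 1795 in WT (-5.94 ± 0.57, adjusted p = 0.000345). Cyp8b1, the sterol 12-alpha-hydroxylase, was at 287 and 164 in HNF4α KO, against 4224, 4197 and 4367 in WT (-4.29 ± 0.67, adjusted p = 0.00408). Slc10a1, the sodium-dependent bile acid carrier, fell as well (-3.64 ± 0.39, adjusted p = 0.000614). Nr0b2, the repressor SHP, was at 174 and 110 in HNF4α KO, against 62, 140 and 111 in WT, and did not pass. Each of the 4 falls named held with any library left out. The count of 8 was between 4 and 9 with 1 library left out, 4 of them without HNF4α KO replicate 1.

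Of the 20 cytochrome P450 and drug metabolism genes with a P60-only region 16 fell and none rose, and over the whole list 25 of 34 fell and 1 rose. Cyp4a10, a fatty acid hydroxylase with a P60-only region over its start (chr4:115190419-115191204), was at 12 and 2 normalized reads in HNF4α KO, against 1156, 1027 and 2279 in WT (-7.80 ± 0.86, adjusted p = 0.000631). Cyp2f2 was at 18 and 19 in HNF4α KO, against 587, 596 and 744 in WT (-5.04 ± 0.64, adjusted p = 0.00127). In both genes HNF4α KO lay below WT with no overlap, and both calls held with any library left out. The 10 largest falls among all genes with a P60-only region were Serpina3k, Sult3a1, Cyp4a10, Cyp2c54, Cyp4a32, Serpina4-ps1, Cyp3a59, Cyp2d37-ps, Slco1b2 and Slc17a3. Of these, 5 encode cytochrome P450 enzymes or a pseudogene of one. Serpina3k, a protease inhibitor of blood plasma, was at 104 and 60 in HNF4α KO, against 53144, 44680 and 4142 in WT. Cyp3a59 was listed at 0 in both HNF4α KO and all 3 C/EBPα KO libraries and at 66, 102 and 58 in WT. Sult3a1, Cyp2c54, Serpina4-ps1 and Cyp3a59 entered the test only through the WT libraries in which they were high, so their direction was fixed by the filter. Cyp2c54 is among the 16 falls. The Cyp2c, Cyp2d, Cyp3a and Cyp4a families and the Serpina3 cluster hold near-identical copies, so reads may be split between them and single members are uncertain. The count of 16 was between 9 and 17 with 1 library left out and 10 without HNF4α KO replicate 1.

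Among the 9 male-biased genes with a P60-only region, 5 fell and none rose. Over the whole lists 7 of 15 male-biased genes fell (median -2.09), and so did 9 of 15 female-biased genes (median -3.68), of which 2 had a P60-only region. Slco1a1, with 3 P60-only regions of which 1 lay over its start (chr6:141895127-141895975), was at 3 and 6 normalized reads in HNF4α KO, at 9, 9 and 8 in C/EBPα KO and at 60, 64 and 249 in WT (HNF4α KO minus WT -4.24 ± 0.79, adjusted p = 0.0109). It entered the test only through the WT libraries in which it was high, so its direction was fixed by the filter. Slco1a1 is also among the bile acid falls given above. C8a, a complement component, was at 52 and 105 in HNF4α KO, against 2533, 1740 and 2772 in WT (-4.94 ± 0.56, adjusted p = 0.000705). Cyp2d9, a steroid hydroxylase, fell by 4.22 (± 0.65, adjusted p = 0.00402), and Ugt2b38 and Selenbp2 also fell. C8a and Cyp2d9 held with any library left out. Slco1a1 and Ugt2b38 lost the call without HNF4α KO replicate 1 (adjusted p = 0.128 and 0.101), and Selenbp2 without WT replicate 1, WT replicate 3 or either HNF4α KO replicate (adjusted p up to 0.128).

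Several genes of adult liver with P60-only regions were low in all 8 RNA libraries. Cyp2c29, a drug-metabolising P450 with 5 P60-only regions, was at 13 and 1 in HNF4α KO, 3, 5 and 43 in C/EBPα KO and 4, 5 and 1 in WT. Cyp1a2, an inducible pericentral P450 with 3, was at 6 and 13 in HNF4α KO, 3, 1 and 22 in C/EBPα KO and, in WT, 8, 18 and 4. Mup1, a major urinary protein, was at 35 and 34 in HNF4α KO, 0, 5 and 86 in C/EBPα KO and, in WT, 12, 40 and 3. Cyp7b1, the oxysterol hydroxylase, was at 9 and 6 in HNF4α KO, 11, 17 and 14 in C/EBPα KO and, in WT, 12, 35 and 9. None of these 4 passed in either knockout, and a fall from such levels has little room to show. Hsd3b5, a steroid dehydrogenase of adult male liver, was at 1 and 0 in HNF4α KO, against 11, 18 and 15 in WT, and did not pass (adjusted p = 0.0524).

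Fatty acid oxidation and synthesis differed in how many genes near P60-only regions were called, a difference that was not itself tested. In oxidation and ketone body genes, 8 of 11 fell in HNF4α KO, beside 11 of 21 over the whole list. Bdh1, the ketone body dehydrogenase, was at 614 and 769 normalized reads in HNF4α KO, against 6062, 6183 and 4772 in WT (-3.03 ± 0.42, adjusted p = 0.002), and held with any library left out. Ppara, the fasting-activated nuclear receptor, with 3 P60-only regions, was at 90 and 140 in HNF4α KO, against 1053, 457 and 1874 in WT (-3.09 ± 0.69, adjusted p = 0.0275), and lost the call without WT replicate 1, WT replicate 3 or either HNF4α KO replicate (adjusted p up to 0.278). In lipid synthesis genes, where P60-only regions were most frequent, 3 of 20 fell, Mlxipl, Gpam and Elovl6, and 17 did not pass. Over the whole list 3 of 24 fell. Fasn was at 3082 and 3678 in HNF4α KO, against 2835, 2478 and 3510 in WT (0.21 ± 0.34, adjusted p = 0.755). The medians were -2.07 for the 11 oxidation and -0.67 for the 20 synthesis genes with a P60-only region. With 1 library left out the count of 8 was between 2 and 9 and the count of 3 between 0 and 4, and without HNF4α KO replicate 1 they were 3 and 0.

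In the other metabolic lists the falls in HNF4α KO were 8 of 17 in urea cycle and amino acid breakdown, 3 of 10 in glucose and glycogen, 3 of 10 in periportal, 1 of 8 in pericentral, 3 of 10 in apolipoprotein and 9 of 18 in coagulation, complement and acute phase genes, and none of their members rose. Without HNF4α KO replicate 1 these counts were 3, 1, 2, 1, 2 and 3. Apob, the structural protein of very-low-density lipoprotein, was at 1347 and 1768 in HNF4α KO, against 47448, 22214 and 105213 in WT (-4.96 ± 0.70, adjusted p = 0.00242). Masp2, a protease of the lectin pathway of complement, was at 55 and 107 in HNF4α KO, against 1593, 1387 and 1417 in WT (-4.23 ± 0.43, adjusted p = 0.000489). These 2 held with any library left out, while the list counts ranged over 3 to 10, 1 to 5, 1 to 5, 1 to 2, 2 to 3 and 3 to 10. Over the whole lists 15 of 30 urea cycle, 7 of 17 glucose and 6 of 16 periportal genes fell. So did 4 of 18 pericentral, 4 of 21 apolipoprotein and 20 of 39 coagulation, complement and acute phase genes. Over all genes tested 3.17% were lower. Among hepatocyte markers 2 of 6 with a P60-only region fell. The only fetal liver gene with such a region, Ahsg, was at 563732 and 555541 in HNF4α KO, against 464801, 378361 and 460374 in WT, and did not pass.

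Among liver transcription factors, 4 of 18 with a P60-only region fell in HNF4α KO, Nr1h4, Nr1i2, Ppara and Prox1, and none rose. Over the whole list 8 of 36 fell. Nr1i2, the xenobiotic receptor PXR, was at 55 and 97 normalized reads in HNF4α KO, against 1372, 872 and 1048 in WT (-3.86 ± 0.45, adjusted p = 0.000871), and held with any library left out. Prox1, a homeobox factor of hepatocytes and lymphatics, lost the call without WT replicate 1, WT replicate 3, C/EBPα KO replicate 1 or either HNF4α KO replicate (adjusted p up to 0.301). Rxra, the heterodimer partner of many nuclear receptors, and Gata6 had 4 P60-only regions each and did not pass. In the 10 circadian genes with a P60-only region, 2 rose and none fell, beside 2 higher and 1 lower of 18 over the whole list. Dbp was at 219 and 240 normalized reads in HNF4α KO, at 67, 140 and 249 in C/EBPα KO and at 36, 42 and 46 in WT (HNF4α KO minus WT 2.45 ± 0.56, adjusted p = 0.0322). Bhlhe41, a repressor of the clock with 3 P60-only regions of which 1 lay over its start, was at 328 and 392 in HNF4α KO, at 6, 14 and 22 in C/EBPα KO and at 9, 14 and 23 in WT (4.55 ± 0.70, adjusted p = 0.00379). In both genes HNF4α KO and WT did not overlap. Bhlhe41 lost the call without HNF4α KO replicate 1 (adjusted p = 0.0523), and Dbp without any of the 3 WT or the 2 HNF4α KO replicates (adjusted p up to 0.227). Clock genes vary with the hour, and the labels give no time of day.

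The largest rises near P60-only regions were in the hepcidin genes. Hamp, with a P60-only region over its start (chr7:31728760-31729990), was at 1924 and 2780 normalized reads in HNF4α KO, at 5, 8 and 45 in C/EBPα KO and at 8, 72 and 46 in WT (HNF4α KO minus WT 6.20 ± 0.99, adjusted p = 0.00454). Hamp2, its mouse paralog, whose only HNF4α region was P60-only (chr7:31710359-31711032, 1.5 kb upstream of the start), was at 149 and 136 in HNF4α KO, listed at 0 in all 3 C/EBPα KO libraries and at 0, 2 and 0 in WT (adjusted p = 0.00381). Both HNF4α KO libraries were above every other library for both genes. The 2 are close copies, so reads of Hamp can be counted at Hamp2. Hamp held with any library left out. Hamp2 entered the test only through the HNF4α KO libraries in which it was high, so it could not be fitted without either of them. Other large rises were Cidea, Dtx1, Serpina6, Bhlhe41, Sel1l3, Kcnk16 and Efhd1. Of these, Cidea and Efhd1 passed the filter only through HNF4α KO, where they were high, so their direction was fixed by the filter. Serpina6, which encodes corticosteroid-binding globulin, was at 4231 and 7276 in HNF4α KO, at 54960, 32605 and 21688 in C/EBPα KO and at 173, 166 and 412 in WT (4.60 ± 0.52, adjusted p = 0.000739), and held with any library left out. Sel1l3, at 339 and 28 in HNF4α KO against 1, 3 and 9 in WT, lost it without HNF4α KO replicate 1, C/EBPα KO replicate 1 or any WT replicate (adjusted p up to 0.562).

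**Figure D5:**
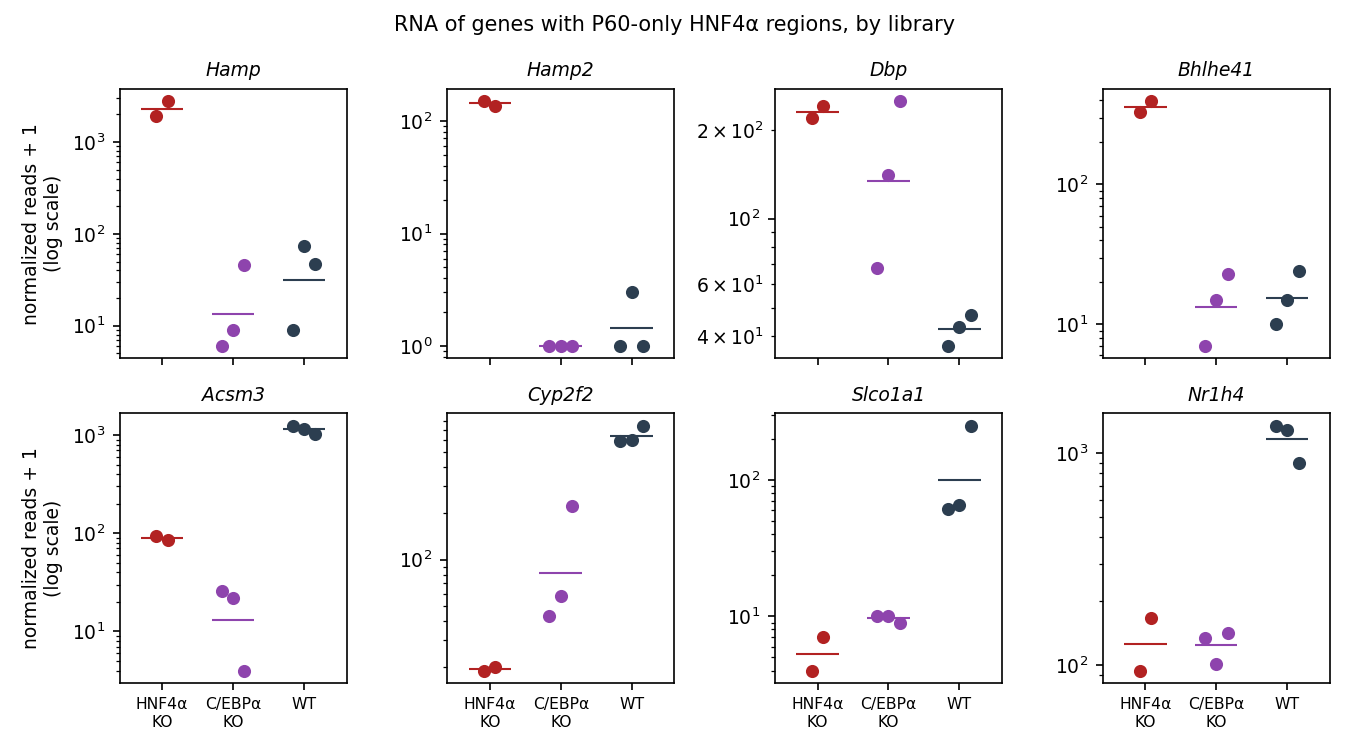
Normalized reads plus 1 (y axis, log scale) of 8 genes with P60-only HNF4α regions in each library of HNF4α KO, C/EBPα KO and WT (x axis). Points are libraries and lines are means on the log scale. Hamp, Hamp2, Dbp and Bhlhe41 lie above WT in HNF4α KO, and Acsm3, Cyp2f2, Slco1a1 and Nr1h4 lie below WT in both knockouts.

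The genes whose only HNF4α regions were P60-only gave 15 rises and 8 falls in HNF4α KO. The largest rises were Hamp2, Cidea, Kcnk16, Efhd1 and Smarcd3. Cidea, a lipid droplet protein, was at 169 and 155 normalized reads in HNF4α KO, against 4, 8 and 1 in WT (5.18 ± 0.96, adjusted p = 0.0105). Kcnk16, a potassium channel gene with 2 P60-only regions, was at 266 and 363 in HNF4α KO, against 6, 13 and 29 in WT (4.44 ± 0.64, adjusted p = 0.00271). Kcnk16 held with any library left out. Cidea entered the test only through the HNF4α KO libraries and could not be fitted without either of them. Efhd1 was at 124 and 161 in HNF4α KO, 1, 0 and 0 in C/EBPα KO and 2, 10 and 8 in WT. It would not have passed the filter without the HNF4α KO libraries. Hamp2, Cidea and Efhd1 are among the 15 rises, and their direction was fixed by the filter. Smarcd3, a chromatin remodelling subunit of heart and skeletal muscle, was at 575 in HNF4α KO replicate 1 and 76 in replicate 2, against 18, 5 and 19 in WT, and lost the call without HNF4α KO replicate 1, WT replicate 1 or WT replicate 2 (adjusted p up to 0.381). The largest falls were Bhmt-ps1, Acot5, Lect1, Acsm3 and Fggy. Acsm3, a medium-chain acyl-CoA synthetase with its P60-only region over the start (chr7:126903571-126904783), was at 93 and 84 in HNF4α KO, at 25, 21 and 3 in C/EBPα KO and at 1245, 1158 and 1024 in WT. The groups did not overlap (HNF4α KO minus WT -3.67 ± 0.71, adjusted p = 0.0134), and the call was lost without WT replicate 1 or either HNF4α KO replicate (adjusted p up to 0.112). Acot5 was called in 2 of 8 fits with a library left out (adjusted p up to 0.21) and Lect1 in 1 of 8 (up to 0.301). Bhmt-ps1, a pseudogene that shares sequence with Bhmt, held with any library left out. Lect1, the chondromodulin gene, was listed at 0 in every knockout library and at 18, 27 and 11 in WT. It entered the test only through the WT libraries, so its direction was fixed by the filter. With 23 calls among 660 genes this set is small, and the count was 3 without HNF4α KO replicate 1, 8 without HNF4α KO replicate 2, 8 without WT replicate 1, 13 without WT replicate 3 and 36 without C/EBPα KO replicate 3.

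Markers of other cells moved with HNF4α KO as well. The 11 stellate cell and fibroblast markers summed to 97880 and 40664 normalized reads in HNF4α KO, against 13107 to 20431 in WT, and 4 of 11 rose. The macrophage markers summed to 32409 and 38271 in HNF4α KO, against 16240 to 19014, with 1 of 11 higher, and the erythroid markers to 6969229 and 4073720 in HNF4α KO, against 1054181 to 3993661, with 0 of 12 called. The pancreatic acinar markers summed to 2031 and 3147 in HNF4α KO, against 311 to 578, with 1 of 5 higher. The hepatocyte markers summed to 623585 and 1052246 in HNF4α KO, against 2221609 to 3540542, with 3 of 10 lower. In C/EBPα KO the bile duct markers summed to 9179 to 11374, against 1551 to 3018 in WT, and 4 of 8 rose. None of the muscle, stellate or bile duct markers' part in the calls near P60-only regions was tested.

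The C/EBPα KO livers were compared with the same 3 WT livers, so the values of both knockouts are not independent. In C/EBPα KO 666 of 17771 genes were called (3.75%), 157 higher (0.883%) and 509 lower (2.86%). Of the 3658 genes with a P60-only HNF4α region 273 were called (7.46%), 29 higher and 244 lower, with a median of -0.15 against 0.03 over all genes. Of the 660 with only P60-only regions 14 were called (2.12%), 4 higher and 10 lower, and 8 and 9 were called without WT replicate 1 and WT replicate 2. The count of 273 was 133 without WT replicate 1, 174 without WT replicate 2 and 169 without C/EBPα KO replicate 1. On values scaled to the library totals the median of all genes was 0.53, against 0.03, and the balance over all genes turned, with 474 higher and 324 lower. Genes with a P60-only region were then 75 higher and 162 lower (31.6% and 68.4% of 237), against 10.6% and 89.4% of 273, and those with only P60-only regions turned to 15 higher and 7 lower.

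Of the 17 urea cycle and amino acid breakdown genes with a P60-only HNF4α region, 14 were lower in C/EBPα KO and none higher (13 lower on library totals, 11 to 14 with 1 library left out). The median was -4.35 for these, beside -2.11 in HNF4α KO. Over the whole list of 30 it was -2.62 with 20 lower, beside -2.0 with 15 lower in HNF4α KO. Cps1, the entry enzyme of the urea cycle, with a P60-only region 4.99 kb upstream of its start (chr1:67164307-67164918) where C/EBPα was also bound at P60 only, was at 185, 87 and 625 normalized reads in C/EBPα KO, against 42271, 35402 and 52397 in WT (-7.62 ± 0.59, adjusted p = 4.54e-05). In HNF4α KO it was at 23796 and 22966 and did not pass. Hpd, an enzyme of tyrosine breakdown, was at 23, 30 and 18 in C/EBPα KO, against 3879, 5179 and 3219 in WT (-7.38 ± 0.34, adjusted p = 4.08e-06). In HNF4α KO it was at 1014 and 716. Arg1, the arginase of the urea cycle, and Hal, which breaks down histidine, fell by 4.40 (± 0.34) and 6.70 (± 0.45). All 4 held with any library left out.

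The largest C/EBPα KO falls among genes with a P60-only region were Serpina3k, Hfe2, Cps1, Hpd and Sult3a1, and the largest rises Serpina6, Tmem54, Ifi27l2b, Sult1c2 and Sucnr1. Hfe2, which encodes hemojuvelin, a regulator of hepcidin, was at 5, 2 and 36 in C/EBPα KO, against 1933, 1719 and 1694 in WT (-7.67 ± 1.02, adjusted p = 0.00152), and at 2301 and 130 in HNF4α KO. Tmem54, Ifi27l2b, Sult1c2 and Sucnr1 entered the test only through the C/EBPα KO libraries in which they were high, so their direction was fixed by the filter. The same held for the fall of Sult3a1, which entered through the WT libraries. Tmem54 was at 42, 87 and 18 in C/EBPα KO and listed at 0 in all 3 WT libraries. Its call was lost without C/EBPα KO replicate 1 or 2 (adjusted p up to 0.0696), that of Sult1c2, a sulfotransferase, likewise (up to 0.0603), and that of Sucnr1, the succinate receptor, without replicate 1 (0.0609). Counts of lower genes with a P60-only region in C/EBPα KO were 13 of 20 in P450 and drug metabolism, 7 of 12 in bile acid, 7 of 10 in glucose, 6 of 10 in periportal, 8 of 18 in coagulation and complement, 4 of 20 in lipid synthesis, 3 of 11 in fatty acid oxidation, 3 of 10 in apolipoprotein, 3 of 9 in male-biased, 1 of 9 in growth hormone and 1 of 8 in pericentral genes. On library totals they were 12, 5, 5, 5, 5, 2, 3, 2, 2, 1 and 1. With 1 library left out the glucose count was between 4 and 8, periportal between 4 and 7, coagulation and complement between 4 and 12, lipid synthesis between 1 and 3, and apolipoprotein between 2 and 5. Over the whole lists 21 of 34 P450 and drug metabolism and 14 of 20 bile acid genes were lower. Glucose genes had 12 of 17 and periportal genes 8 of 16. Coagulation and complement had 21 of 39, lipid synthesis 4 of 24, fatty acid oxidation 5 of 21 and apolipoprotein 7 of 21. Male-biased genes had 3 of 15, growth hormone 2 of 18 and pericentral 3 of 18. Among transcription factors Cebpa, Nr1h4 and Foxa1 fell and Gata6 rose, the last 2 losing the call without WT replicate 1 or WT replicate 2, and Gata6 also without C/EBPα KO replicate 1 (adjusted p up to 0.103 and 0.071). Of 10 circadian genes 0 passed, also for Dbp (adjusted p = 0.116).

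Among genes whose start lay in a P60-only region, the 5 most abundant in WT were Gpx1, Bsg, Srsf5, Ctsd and Serping1. Gpx1, a glutathione peroxidase, was at 33902 and 52628 normalized reads in HNF4α KO, at 12905, 33590 and 18262 in C/EBPα KO and at 8680, 36992 and 5452 in WT, and its groups overlapped. Serping1, the C1 esterase inhibitor of complement, was at 6996 and 7468 in HNF4α KO, at 899, 635 and 2108 in C/EBPα KO and at 12117, 10031 and 9057 in WT. It fell in C/EBPα KO (-3.28 ± 0.43, adjusted p = 0.00142) and held with any library left out. Bsg, a membrane chaperone of lactate carriers, Srsf5, a splicing factor, and Ctsd, the lysosomal protease cathepsin D, did not pass in either knockout.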

How the data were processed

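Peaks were deposited by the authors as positions called with MACS 1.4 on build mm9, per the submitters' processing notes, which also name BWA and bedtools. The deposited score column was 0 in every list. RNA values were deposited by the authors as normalized, rounded values, used here as a score and not as counts, since the notes name DESeq beside TopHat2. The planned count test was therefore replaced by limma 3.58.1 (R 4.3.3) with a mean trend on log2(value + 1), with all 8 libraries in 1 fit, for the 17771 genes with at least 10 in at least 2 libraries and Benjamini-Hochberg adjustment over all of them. It was tested on simulated data. C/EBPα shares were compared with exact permutation tests over the peak lists. Regions were assigned to the nearest start in the deposited gene table within 50 kb of their midpoint.

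The labels do not say whether replicates came from separate litters or days, so p-values measure only the spread between these samples. Replicate numbers did not pair the RNA libraries, with correlations of same-numbered deviations from -0.231 to 0.19. Members and gene lists were chosen with earlier results of these data known. Named genes were those with the most P60-only regions, the largest changes among called genes, members of the lists, and the most abundant genes with a start in a region. Alternatives were other overlap rules, distances, pseudocounts, filters, scalings, a replicate block and leaving out each list or library. Fixed windows and protein-coding starts were added after the data were seen. Python 3.11.15 with SciPy 1.17.1 and pandas 2.3.3 was used. Some genes that met the naming rule are not reported here.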

Additional observations from a re-analysis of the deposited data

Results flagged for a closer look

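The C/EBPα share of P60-only HNF4α regions, relative to all other HNF4α regions, is given for a closer look because the unadjusted test between stages passed, while the adjusted one did not. On the log2 scale it was 0.942 higher in the 2 P60 C/EBPα lists than in the 8 earlier lists (exact permutation test, 2-sided p = 0.0444, the smallest this design allows, 0.0888 adjusted over 2 tests, and 0.4 on stage means). Both P60 lists lay above every earlier list, which did not hold when the share was set against regions bound at P14 and P60 only.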

How the results depend on the processing

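The number of P60-only regions was 10028. It was 6402 when a peak in 1 list of an earlier stage counted, 17390 within the replicate 2 lists (replicate block, 12669 within the replicate 1 lists), and 8523 to 19609 with 1 HNF4α list left out, the highest 2 without P60 replicate 1 (19609) and P60 replicate 2 (16084). With a list left out, a peak in the remaining list of that stage sufficed, so the rule was looser as well. The mean C/EBPα difference of 1.06 points was -0.39 with an overlap of at least 50%, -20.84 against other regions bound at P60 (-17.87 in fixed windows), -32.69 against regions bound at every stage, and 14.0 under the stricter rule (exact p = 0.00781). With 1 HNF4α or C/EBPα list left out it was between -5.8 and 13.43. The stage difference of 0.942 was 1.051 and 0.945 in the replicate block fits and 0.942 on stage means (each exact p = 0.4), and 0.848 to 1.105 with 1 list left out. It kept its sign in all settings run, none of which took regions bound at P14 and P60 only as the reference.

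The 293 genes called in HNF4α KO were 195 with starts within 10 kb, 178 with the replicate block, and 96 to 446 with 1 library left out. The 273 called in C/EBPα KO were 183 within 10 kb, 218 with the replicate block, and 133 to 334 with 1 library left out. Of 90 named genes called in HNF4α KO, 34 were called in every fit with a library left out in which they passed the filter, and 71 with the block. Cidea, which could not be fitted without either HNF4α KO replicate, is therefore among the 34. In C/EBPα KO the same counts were 52 and 77 of 83, and none changed direction in either knockout. The causes were not tested. Peak lists hold no read depth, so regions absent from a list may lie below its threshold.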
